A study of Labrus bergylta with 24 samples.

Results

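Hindgut RNA was compared between ballan wrasse (Labrus bergylta) given a prebiotic and ballan wrasse kept on the reference diet, which are 12 of the 24 fish sequenced. The members were taken by the diet recorded in the labels. The prebiotic group had 6 fish on the reference diet with 0.4% of Aquate SG, a commercial prebiotic, and the control group had 6 fish on the reference diet alone. All fish ate the reference diet during 4 weeks of acclimatization, and the diets compared were fed for 5 weeks. Per the labels, dry matter of the reference diet was 16% ash, 7% carbohydrate, 16% lipid and 61% protein. Each diet was fed in 2 tanks, but which tank a fish came from is not recorded, so a difference between diets cannot be told apart from a difference between tanks. The same holds for differences between fish of 1 diet. The other 12 fish, 6 on 0.7% soyasaponin (a plant compound found in soybean) with the same prebiotic (combined) and 6 on 0.7% soyasaponin alone, entered as a shared estimate of the spread and as a separate set of fish in which the prebiotic was also added. The comparison asks how the hindgut transcriptome differed between prebiotic and control fish, and how much fish on the same feed differed from each other.

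The hindgut of teleost fish absorbs the last nutrients, takes up whole proteins and carries a dense immune and microbial interface. Ballan wrasse have no stomach, so feed reaches the intestine without acid digestion. Prebiotics are feed components that the animal digests poorly and that are given to favour certain gut microbes. The microbial community of the gut can differ between animals kept together.

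Expression was measured by paired-end sequencing of stranded mRNA libraries. The values are normalized counts, which are the reads of a transcript divided by a size factor of its library. Recovered reads were 8.63 to 10.6 M (mega) per library in prebiotic fish and 8.42 to 12.5 M in control fish. Of 20751 transcripts, 17056 had a mean of at least 10 normalized counts over the 24 libraries and were tested. The table gives transcript identifiers only, and 0 of 20751 matched the RefSeq gene table of this species, so transcripts are given by identifier, no pathway can be named, and the hindgut label could not be checked against marker genes. The tissue was sequenced in bulk, so fewer cells of a type and less RNA per cell cannot be told apart.

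With the prebiotic, 310 of 17056 transcripts differed from control at a Benjamini-Hochberg adjusted p under 0.05 (limma, 4 diets in 1 fit), which is 1.82% of those tested. Of these, 157 (0.92%) were higher and 153 (0.897%) lower. Most changes were moderate: the median log2 fold change was 0.57 among the higher transcripts and -0.75 among the lower ones. At least 2-fold were 16 of the higher and 40 of the lower transcripts. The smallest change called was 0.24 on the log2 scale, and the extremes were 2.21 and -2.95. The values of the 6 prebiotic fish did not overlap those of the 6 control fish in 266 transcripts (1.56%), with 108 higher (0.633%) and 158 lower (0.926%). Of the 310 called transcripts, 127 had no overlap, and in 297 the control median was passed by all 6 prebiotic fish. The 310 were chosen for a difference between these same fish, so both counts are no separate support for it.

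**Figure D1:**
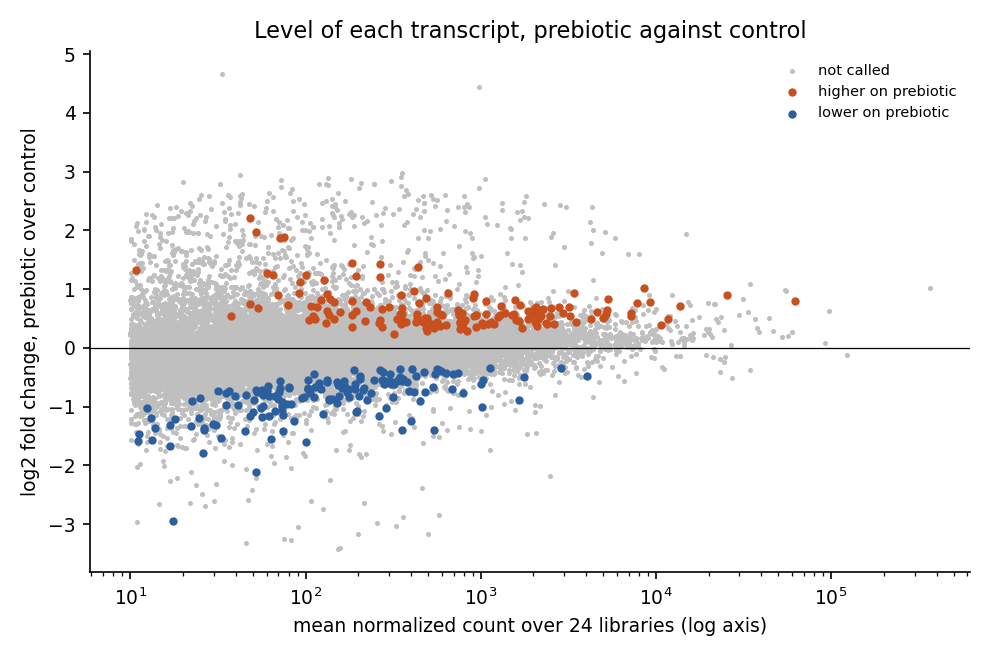
Log2 fold change of prebiotic over control for each of 17056 transcripts (vertical axis) against the mean normalized count over 24 libraries (horizontal log axis), with the 157 higher and 153 lower transcripts in colour. In the least, middle and most abundant of 3 equal parts, 46, 60 and 47 transcripts were called lower and 8, 36 and 113 higher. This balance shifts with the scaling of the libraries.

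The number of changed transcripts differed between fits. The 4-diet limma fit shares 1 estimate of the spread between 4 diets, so it treats fish of all diets as equally variable. When a variance weight was estimated for each diet, the prebiotic libraries received the lowest weight, 0.718, against 1.25 for combined, 1.02 for soyasaponin and 1.09 for control libraries. With those weights 0 transcripts were called by limma, where the smallest adjusted p was 0.0519 and 3226 transcripts had an unadjusted p under 0.05. On recovered reads, edgeR called 302 (103 higher and 199 lower) and DESeq2 called 1626 (1023 higher and 603 lower). A limma fit of the prebiotic and control fish alone called 4 transcripts (0.0235%), all lower and without overlap, with log2 fold changes of -1.18 to -0.84. The 4 had means of 50.04 to 315 normalized counts and were also among the 310.

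The count also moved with single fish. Leaving out prebiotic replicate 5 gave 0 in limma, with 2762 transcripts under 0.05 before adjustment. Leaving out prebiotic replicates 4, 2 and 6 one at a time gave 44, 172 and 1006, and leaving out replicates 4 and 5 together gave 11. Leaving out control replicates 1, 2, 3 and 5 gave 71, 49, 67 and 22, and leaving out control replicate 4 gave 645. Control replicate 4 was the control fish nearest to the prebiotic fish in 87 of the 157 higher and 52 of the 153 lower transcripts. Among prebiotic fish, replicate 3 was nearest to the controls in 62 of the 157 higher transcripts and replicate 6 in 68 of the 153 lower ones.

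The median over the called transcripts lay beyond the control fish in each prebiotic fish, though not equally far. For the 157 higher transcripts, the median log2 difference from the control mean was 0.57, 0.58, 0.41, 0.61, 0.69 and 0.58 in prebiotic replicates 1 to 6, against -0.16 to 0.24 in control fish. For the 153 lower transcripts it was -0.66, -0.77, -0.66, -0.96, -0.95 and -0.44 in prebiotic replicates 1 to 6, against -0.12 to 0.10 in control fish. Replicates 4 and 5 lay farthest from control among the lower transcripts and replicate 6 lay nearest. These medians describe transcripts chosen for this difference and are no separate support for it.

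LABE_00040876-RA was the transcript with the largest rise among called transcripts with a mean of at least 100 normalized counts and no overlap. It had 782, 633, 562, 581, 499.7 and 621 normalized counts in the 6 prebiotic fish, against 331, 353, 377, 391, 135 and 382 in the 6 control fish. Every prebiotic fish was above every control fish, and control replicate 5 was far below the others. The means were 613 ± 95.3 in prebiotic and 328 ± 97.0 in control fish (SD, n = 6 each), and the log2 fold change was 0.97 with SE 0.21 and limma adjusted p = 0.0296. Without control replicate 5 the log2 fold change was 0.73, with an adjusted p of 0.0549.

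LABE_00049047-RA had 161, 122, 136, 157, 243 and 154 normalized counts in prebiotic fish, against 72.5, 84.2, 69.8, 101, 74.0 and 106 in control fish. The groups did not overlap, and prebiotic replicate 5 was the highest fish. The log2 fold change was 0.92 (SE 0.15, adjusted p = 0.0241). Combined fish averaged 138 ± 15.4 and soyasaponin fish 144 ± 23.8 (SD, n = 6 each), so the control fish stood below all 3 other diets for this transcript. Choosing a large gap between prebiotic and control fish favours transcripts with extreme control fish, so this order is partly set by the choice.

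LABE_00018937-RA had the largest fall under the same rule. It had 259, 410, 409, 238, 208 and 690 normalized counts in prebiotic fish, against 884, 899, 1202, 898, 748.5 and 803 in control fish. Prebiotic replicate 6 came close to the lowest control fish, and the other 5 prebiotic fish lay at or under 410. The means were 369 ± 180 in prebiotic and 906 ± 157 in control fish (SD, n = 6 each), and the log2 fold change was -1.40 with SE 0.28 and limma adjusted p = 0.0241. Combined fish averaged 476 ± 164 and soyasaponin fish 426 ± 184 (SD, n = 6 each). The control mean was thus above those of all other diets, also the one without prebiotic, an order that the choice of this transcript favours.

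LABE_00051423-RA had 204, 151, 198, 297, 213 and 262 normalized counts in prebiotic fish, against 1205, 375, 720, 812, 430 and 297 in control fish. The highest prebiotic value, 296.5, was just under the lowest control value, 297.1. The log2 fold change was -1.39 (SE 0.35, adjusted p = 0.0405). Here the control fish were the more variable, with an SD of 342 around 640, against 51.3 around 221 in prebiotic fish (n = 6 each). Combined fish averaged 297 ± 183 and soyasaponin fish 267 ± 114 (SD, n = 6 each). For this transcript too, the control mean was above those of all other diets, and again the choice favours that order.

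None of these 4 calls held in limma when the prebiotic and control fish were fitted alone (adjusted p = 0.0984 to 0.121) or with a variance weight per diet (adjusted p = 0.0519 to 0.0869). None held without prebiotic replicate 5 (adjusted p = 0.0593 to 0.0893). All 4 kept their direction under every alternative run. They were chosen for having no overlap, so most alternatives could hardly reverse them, and this is no separate support.

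**Figure D2:**
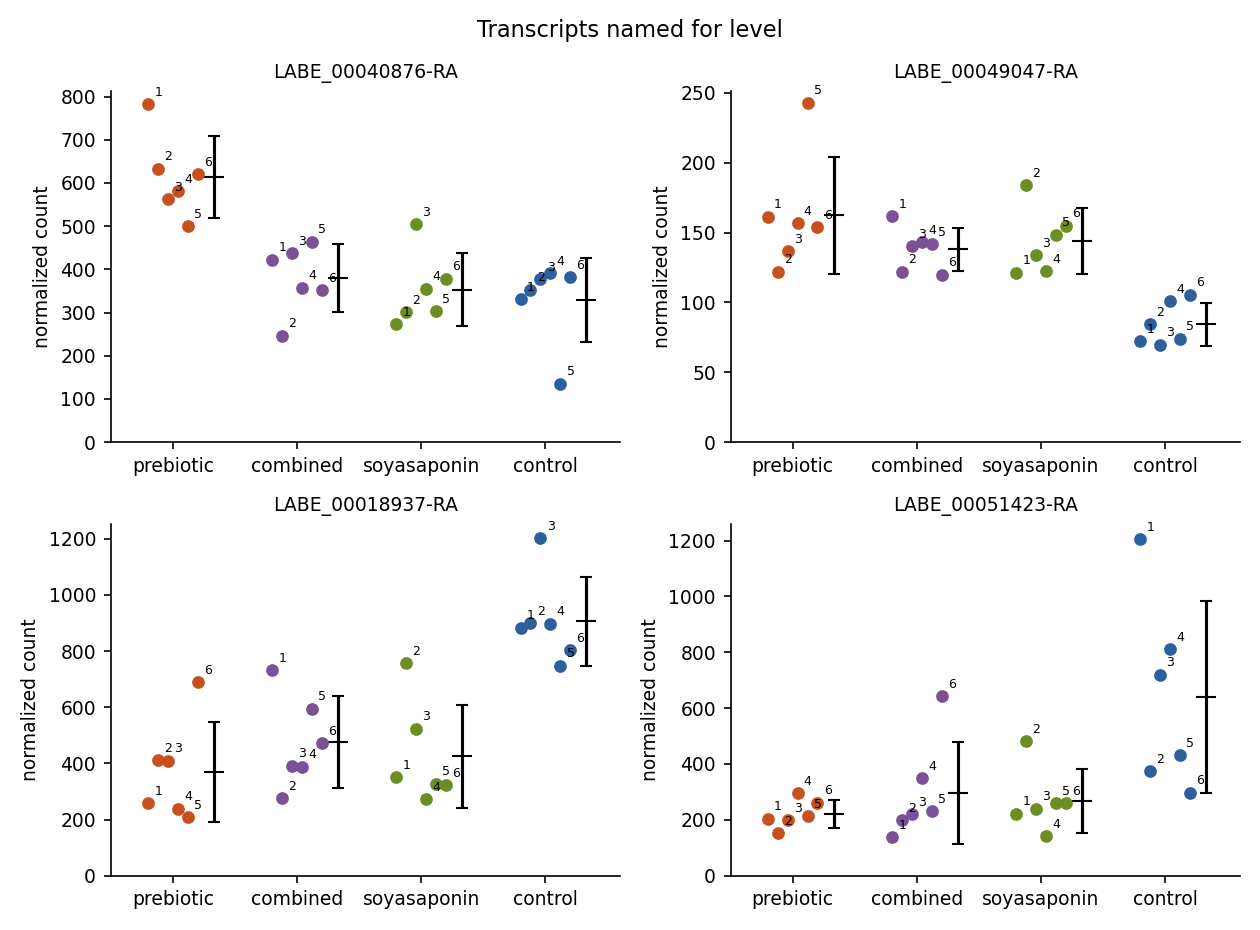
Normalized counts (vertical axis, starting at 0) of the 4 transcripts named for level in each fish of the 4 diets; points are fish, numbered by replicate, and bars give mean and SD (n = 6). In each panel the 6 prebiotic fish lie on one side of the 6 control fish, for example 499.7 to 782 against 135 to 391 for LABE_00040876-RA.

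The direction of change followed abundance on the deposited scale. In the most abundant of 3 equal parts of the tested transcripts, with means above 272 normalized counts, 113 were called higher and 47 lower. In the least abundant part, below 67.6, 8 were called higher and 46 lower. In the middle part 36 were called higher and 60 lower, so the higher calls rose with abundance and the lower calls did not follow it. The median log2 fold change was 0.08 in the most abundant part and -0.08 in the least abundant part, against 0.03 over all transcripts. Among the 171 transcripts of the top 1% by mean, 149 (87.1%) had a positive log2 fold change, against 52.8% of all transcripts tested, and the median was 0.21. Limma called 10 of the 171 higher and 0 lower, where it called 0.92% of all transcripts higher and 0.897% lower.

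The scale of a whole library gave 1 value per fish, its recovered reads divided by its size factor. This value does not measure the amount of RNA and is not separate from the size factor. Setting every library to the same number of reads would make it equal in all fish. The normalized counts of all transcripts summed to 10.6, 9.94, 10.02, 10.4, 11.3 and 10.5 M in prebiotic fish, against 8.80, 8.68, 8.95, 9.55, 8.47 and 9.16 M in control fish. Every prebiotic fish was above every control fish, and also above the highest of the 12 fish on the other diets, a combined fish at 9.82 M. The means were 10.5 ± 0.500 M in prebiotic and 8.93 ± 0.382 M in control fish (SD, n = 6 each; exact two-sided permutation p = 0.00216, the smallest that 6 against 6 fish can give, adjusted p = 0.0119 over 11 library measures). This sum was added to the library measures after its values were seen. Its exact p was at most 0.00433 when any 1 of the 12 fish was left out, and 0.00476 with prebiotic replicates 4 and 5 both left out. Because the groups did not overlap, leaving out fish could only give a p near the smallest possible. These values are therefore no separate support.

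Abundant transcripts made up much of that excess. Of the difference of 1.52 M normalized counts, the most abundant transcript held 17.3%, the top 10 held 28.4% and the top 100 held 48.9%. The top 100 took 29.4 ± 2.21% of normalized counts in prebiotic and 25.98 ± 2.17% in control fish (SD, n = 6 each; exact permutation p = 0.0238, adjusted p = 0.0387). With control replicate 5 or prebiotic replicate 1 left out, the exact p was 0.0519. Of these 100, 84 had a higher mean in prebiotic fish, where 52.8% of all transcripts tested had a positive log2 fold change. Limma called 5 of the 100 higher and 0 lower, against 0.92% and 0.897% of all transcripts. Control replicate 4 again stood nearest to the prebiotic fish, with 5.94% of its counts in the most abundant transcript where the other controls held 1.35 to 3.56% and prebiotic fish 3.72 to 6.30%.

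How this appears depends on the scaling. When every library was set to the same number of reads, the log2 fold changes shifted down, with a median over all transcripts of -0.20 in place of 0.03. Against that median, the top 1% stood 0.18 higher under equal reads and also 0.18 higher under the deposited size factors. Both scalings multiply a whole library by 1 number, so this gap could hardly differ between them. The match is therefore no separate support for the pattern. Under quantile normalization, which forces 1 distribution of values on all libraries, the top 1% stood at -0.03 against the median. That scaling removes such a gap by design, so it does not test the pattern either. Equal reads gave 86 higher and 2525 lower transcripts in limma, and quantile normalization 65 higher and 205 lower, so the balance between higher and lower calls differed between scalings. Prebiotic fish had lower size factors, 0.894 ± 0.105 against 1.11 ± 0.190 in control fish (SD, n = 6 each; exact permutation p = 0.0325, adjusted p = 0.0397), and fewer transcripts with any read, 20227 ± 83.8 against 20347 ± 72.2 (SD, n = 6 each; exact permutation p = 0.0281, adjusted p = 0.0387). Neither held throughout: the size factor had an exact p of 0.0541 to 0.0671 with control replicate 1, 2 or 5 or prebiotic replicate 1, 4, 5 or 6 left out. The number of transcripts with any read had an exact p of 0.0519 to 0.0563 with control replicate 1, 5 or 6 or prebiotic replicate 1, 5 or 6 left out. Recovered reads did not differ detectably, at 9.31 ± 0.754 M in prebiotic and 9.86 ± 1.48 M in control fish (SD, n = 6 each; exact permutation p = 0.481). The part of the size factor in the calls was not tested here.

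The prebiotic was also added to soyasaponin, in fish whose libraries are in neither arm of the comparison above. These fish were in the 4-diet fit and so, through its estimate of the spread, helped to choose the 310 transcripts, and leaving out single soyasaponin fish gave 248 to 403 calls. Among the 310 transcripts, 153 (49.4%, 95% exact binomial interval 43.7 to 55.1%, which treats transcripts as independent) differed in the same direction between combined and soyasaponin fish as between prebiotic and control fish. Over all 17056 transcripts the share was 53.5%. The 157 transcripts higher on the prebiotic had a median log2 difference of 0.02 between combined and soyasaponin fish, and the 153 lower ones had a median of 0.03, against 0.01 over all transcripts. Of the 310, 8 had an unadjusted p under 0.05 there (2.58%), against 5.47% of all transcripts tested.

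The difference between both settings was itself tested with an interaction contrast. On the deposited scale limma called 0 of 17056 (0%), with a smallest adjusted p of 0.128 and 2174 transcripts at an unadjusted p under 0.05, while edgeR called 0 and DESeq2 117. With equal reads per library limma called 72, and with prebiotic replicate 2 left out it called 1. For LABE_00018937-RA, combined and soyasaponin fish averaged 476 ± 164 and 426 ± 184 normalized counts (SD, n = 6 each), a log2 difference of 0.18 (SE 0.28), and the interaction was 1.59 (SE 0.39, adjusted p = 0.180). For LABE_00040876-RA the averages were 380 ± 79.3 in combined and 353 ± 84.0 in soyasaponin fish (SD, n = 6 each), a log2 difference of 0.11 (SE 0.21), and the interaction was -0.86 (SE 0.30, adjusted p = 0.254). Both transcripts were named for a large difference between prebiotic and control fish. That difference is part of the interaction, so these 2 interactions are likely overstated by the choice. The same-direction share was unsteady. Leaving out control replicate 5 gave 68.2%, prebiotic replicate 4 gave 65.9% and prebiotic replicate 2 gave 58.7%, while soyasaponin replicate 1 gave 37.6%. Each share covers the transcripts called in that setting, only 22 without control replicate 5. The share over all transcripts was not computed in these settings, so the shares cannot be set against it.

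Fish on the prebiotic differed more from one another than fish on the reference diet. This was known from the same data before the tests of spread below were chosen, so their p-values are no separate support for it. The median correlation of a fish with the 5 others of its diet was 0.896, 0.896, 0.846, 0.863, 0.874 and 0.851 in prebiotic replicates 1 to 6, against 0.932, 0.915, 0.922, 0.901, 0.922 and 0.912 in control replicates 1 to 6. No prebiotic fish reached the lowest control fish. Combined fish, which also ate the prebiotic, lay at 0.896 to 0.935, and soyasaponin fish at 0.897 to 0.941. The means were 0.871 ± 0.0217 in prebiotic and 0.917 ± 0.0106 in control fish (SD, n = 6 each; exact two-sided permutation p = 0.00216, the smallest possible, adjusted p = 0.0119). Correlations of fish in 1 diet share fish, so the 6 values of a diet are not 6 separate observations. The prebiotic values of 0.896 were identical in all digits given, as when the same correlation is counted for both fish. A split of the fish of 1 diet, as described below, can also lower all its values at once. The test treats the values as separate, so this p is only approximate and may be too small.

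Distances gave the same order with some overlap. The distance of a fish to the mean profile of the 5 others of its diet was 93.7, 107, 129, 129, 127 and 124 in prebiotic replicates 1 to 6, against 85.0, 95.1, 95.6, 107, 90.9 and 95.3 in control replicates 1 to 6, in log2 units summed over 17056 transcripts as a Euclidean distance. Prebiotic replicates 3, 4, 5 and 6 were well beyond every control fish, replicate 2 was only just beyond the highest of them, at 106.6, and replicate 1 lay among them. Combined fish lay at 78.0 to 104.5, and soyasaponin fish at 76.8 to 122. The means were 118 ± 14.6 in prebiotic and 94.7 ± 7.12 in control fish (SD, n = 6 each; exact permutation p = 0.0173, adjusted p = 0.0381). Distances of fish in 1 diet share that diet's centre, and a split of its fish can raise several at once. This p is therefore approximate too and may be too small. The difference of 23.5 lay between 19.1 and 31.7 when any 1 fish was left out, with exact p of 0.00433 to 0.0390. Without prebiotic replicates 4 and 5 together the difference was 15.4 (exact p = 0.214), and that of the median correlation was -0.0036 (exact p = 0.9).

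**Figure D3:**
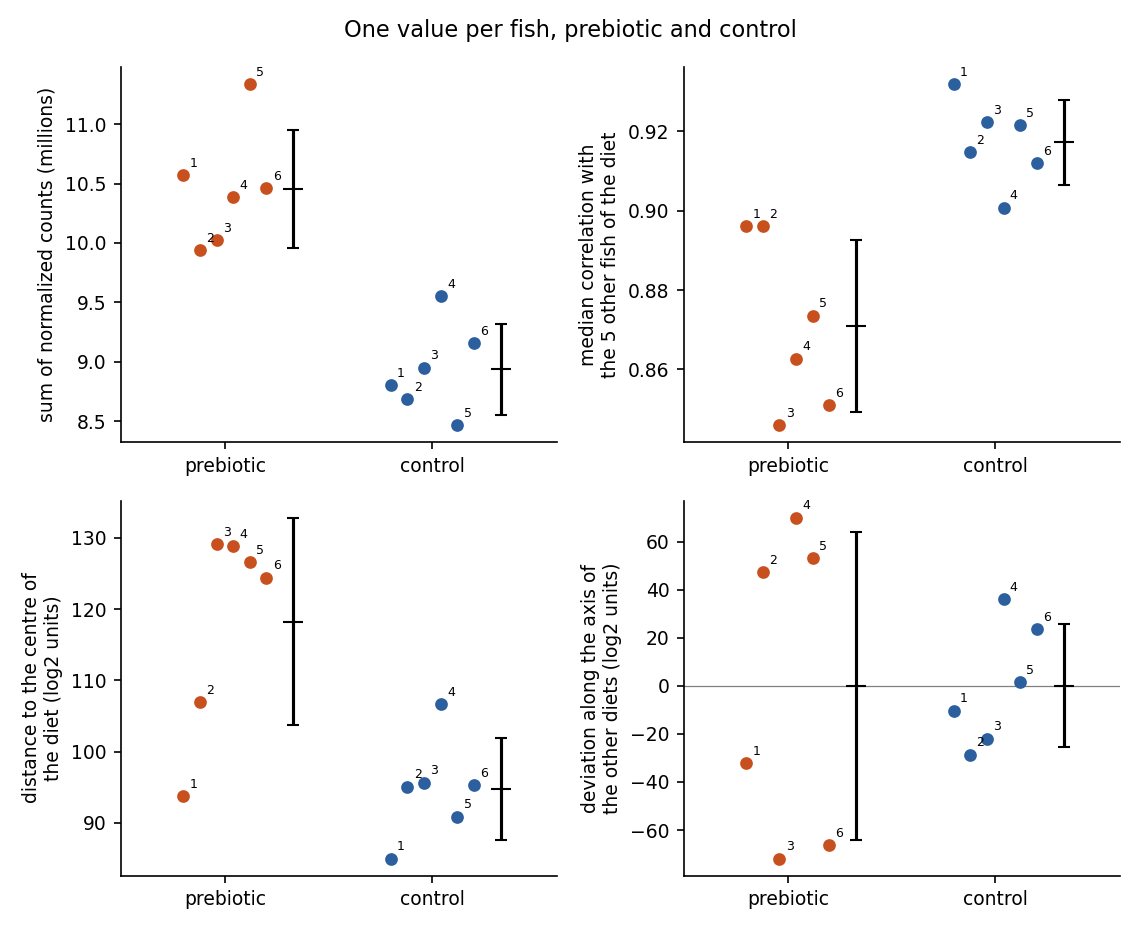
One point per fish, numbered by replicate, with mean and SD (n = 6), for the sum of normalized counts, the median correlation with the other fish of the diet, the distance to the centre of the diet and the deviation along the axis of the other diets (vertical axes in the units shown, not starting at 0). Prebiotic fish sit at 9.94 to 11.3 M against 8.47 to 9.55 M in control fish, and along the axis they fall at both ends, 3 above 47 and 3 below -32.

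The wider spread lay mainly along 1 direction. Fish were described by their deviation from the mean of their own diet, and the leading axis of the 12 deviations held 40.2% of their squared length, with 12.96% on the next. Scores on it were -41.7, 51.0, -89.3, 83.2, 80.8 and -83.9 in prebiotic replicates 1 to 6, against -18.8, -29.4, -29.8, 53.6, -7.33 and 31.7 in control replicates 1 to 6. Prebiotic replicates 2, 4 and 5 stood at one end and replicates 1, 3 and 6 at the other. With 2 tanks per diet and no tank recorded, this split cannot be told apart from a difference between tanks. The mean squared distance to the diet mean was 9835 in prebiotic and 6263 in control fish, a ratio of 1.57. Without this axis it was 4370 in prebiotic and 5257 in control fish, a ratio of 0.831. The axis was drawn from the same fish and is pulled toward the more variable group.

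A similar axis was found in fish of the other diets. The leading axis of the deviations of the 12 combined and soyasaponin fish held 34.1% of their squared length and had a cosine of 0.778 with the axis above. Along it, prebiotic replicates 1 to 6 lay at -32.3, 47.3, -71.9, 69.9, 53.1 and -66.2, against -10.4, -28.7, -22.0, 36.1, 1.41 and 23.6 in control replicates 1 to 6. The absolute deviation averaged 56.8 ± 15.4 in prebiotic and 20.4 ± 12.6 in control fish (SD, n = 6 each; exact permutation p = 0.00433, adjusted p = 0.0159), a measure added after the data were seen. Deviations of fish in 1 diet share that diet's mean, and a split of its fish raises them together. This p is therefore approximate as well and may be too small. The axis held 34.8% of the squared deviations of prebiotic fish and 8.72% of those of control fish, and 80.6% of the excess between the groups. After its removal the ratio of mean squared distances was 1.12. Without prebiotic replicates 4 and 5 the difference in absolute deviation was 18.7 (exact p = 0.219).

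Transcript by transcript, the SD over prebiotic fish on the log2 scale exceeded that over control fish in 10636 of 17056 transcripts (62.4%). The median SD was 0.38 in prebiotic, 0.29 in combined, 0.33 in soyasaponin and 0.31 in control fish. The SD was at least 2-fold larger in prebiotic fish for 3451 transcripts and at least 2-fold smaller for 1063. The median ratio was 0.35 on the log2 scale at middle abundance, 0.31 at low and 0.13 at high abundance. Single fish apart from the 5 others of their diet were not more frequent on the prebiotic: by Dixon's criterion 913 transcripts (5.35%) had such a fish among prebiotic and 1221 (7.16%) among control fish, where chance alone flags about 1 in 20, and control replicate 5 was that fish in 514.

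A limma test on absolute deviations from the diet mean, in the 12 fish, called 182 transcripts for a difference in spread (1.07%). Spread was larger in prebiotic fish in 174 (1.02%) and smaller in 8 (0.0469%), and the smallest adjusted p was 0.0462, just under the threshold. At an unadjusted p under 0.05, 2387 were larger and 474 smaller. In 162 of the 174, the 3 highest prebiotic fish were replicates 2, 4 and 5, which was the case in 18.9% of all transcripts tested, so these calls largely share the same 3 fish. In 166 of the 174 (95.4%) the prebiotic mean on the log2 scale was also above control, against 52.8% of all transcripts tested, with a median log2 fold change of 0.64. The same 12 fish chose these transcripts, and the same 3 fish were highest in most of them. This count is therefore no separate result on level. Of the 182, 1 was among the 310 called for level, where 1.82% of all transcripts tested were. A wide spread between fish also raises the error of the level test, so this low overlap is partly set by the choice.

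**Figure D4:**
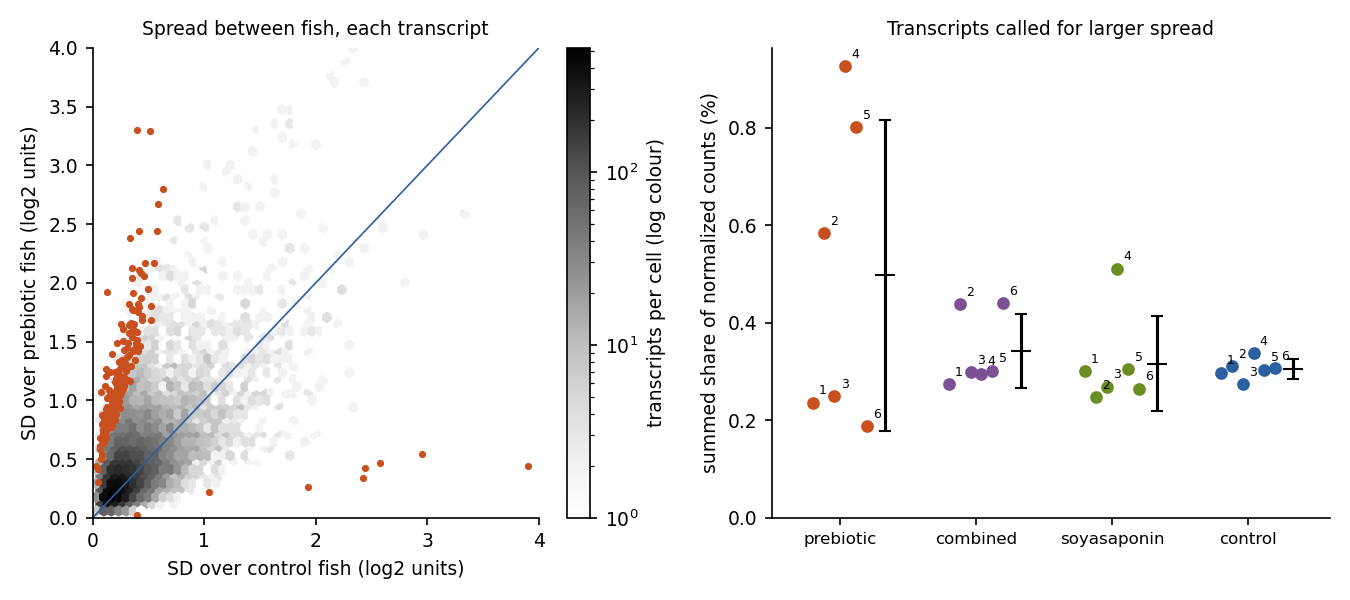
Left, SD on the log2 scale over 6 prebiotic fish (vertical axis) against that over 6 control fish (horizontal axis) for 17056 transcripts, shaded by number per cell, with equality as a line and the 182 transcripts called for spread as points. Right, summed share of normalized counts (percent, axis from 0) of the 174 transcripts with larger spread, 1 point per fish with mean and SD (n = 6); prebiotic replicates 2, 4 and 5 stand at 0.584 to 0.927%, above the 0.274 to 0.337% of control fish.

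Summed over the 174 transcripts, normalized counts took 0.236, 0.584, 0.250, 0.927, 0.802 and 0.188% of the library in prebiotic replicates 1 to 6, against 0.274 to 0.337% in control fish. Replicates 2, 4 and 5 were above every control fish and replicates 1, 3 and 6 below every one. The ratio of highest to lowest sum was 4.89 in prebiotic, 1.59 in combined, 1.96 in soyasaponin and 1.32 in control fish. Prebiotic and control values chose these transcripts, but the other diets did not. In those, soyasaponin replicate 4 reached 0.511% and combined replicates 6 and 2 reached 0.440 and 0.438%, and the other 9 fish lay between 0.248 and 0.305%. The SD of these transcripts was larger in combined than in soyasaponin fish in 33.9%, against 42.2% of all transcripts, so adding the prebiotic to soyasaponin went with no excess of larger SDs among them.

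LABE_00027495-RA showed the largest increase in spread among transcripts called with a mean of at least 100. It had 69.5, 580, 65.2, 1247, 1057 and 21.8 normalized counts in prebiotic replicates 1 to 6, against 80.9, 63.6, 59.7, 179, 82.9 and 105 in control replicates 1 to 6. Replicates 2, 4 and 5 were above all controls, replicates 1 and 3 among them, and replicate 6 below. The mean absolute deviation was 2.34 in prebiotic and 0.46 in control fish, a difference of 1.88 log2 units (SE 0.51, adjusted p = 0.0495). Its mean level did not pass the test (log2 fold change 1.22, SE 0.77, adjusted p = 0.347).

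LABE_00011151-RA had 21.2, 239, 56.0, 603, 559 and 27.9 normalized counts in prebiotic replicates 1 to 6, against 71.8, 37.2, 56.6, 68.0, 44.6 and 54.7 in control replicates 1 to 6. The same 3 fish were high, and replicates 1 and 6 were below every control fish. The difference in mean absolute deviation was 1.74 log2 units (SE 0.41, adjusted p = 0.0462). In the other diets it was highest in soyasaponin replicate 4 (183) and combined replicates 6 and 2, where combined fish ranged from 20.9 to 151.

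The 2 transcripts named for smaller spread had a few control fish with low values. LABE_00078682-RA had 496, 949, 446, 648, 543 and 407 normalized counts in prebiotic replicates 1 to 6, against 2.81, 878, 669, 519, 1.78 and 415 in control replicates 1 to 6. Control replicates 1 and 5 held 4 and 2 reads of it, and the other 4 controls lay among the prebiotic fish. The difference in mean absolute deviation was -3.30 log2 units (SE 0.76, adjusted p = 0.0462). LABE_00094357-RA had 91.0 to 263 normalized counts in prebiotic fish, against 273, 121, 9.10, 173, 1.78 and 2.93 in control replicates 1 to 6. Its difference was -2.41 log2 units (SE 0.61, adjusted p = 0.0462). Here control replicates 3, 5 and 6 were low, so the low control fish were not all the same for both transcripts. The log2 SD of LABE_00078682-RA was 0.44 in prebiotic, 1.08 in combined, 0.37 in soyasaponin and 3.90 in control fish. For LABE_00094357-RA it was 0.54, 1.28, 0.63 and 2.95 in the same order. In both, control fish had the widest spread of all diets, and soyasaponin fish without prebiotic were close to prebiotic fish. Both transcripts were chosen for a wide spread of control fish, so this order is partly set by the choice.

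The spread calls were less stable than the whole-profile measures. Leaving out any 1 of the 6 control fish gave 0 calls in limma, with 2621 to 2910 transcripts under 0.05 before adjustment. Leaving out prebiotic replicate 5 gave 0 (2529 before adjustment) and leaving out prebiotic replicate 4 gave 2. Leaving out prebiotic replicates 1, 2 and 3 one at a time gave 423, 729 and 407. The count was also 0 with deviations from the diet median (1724 at an unadjusted p under 0.05) and after removal of the axis of the other diets (2291); edgeR and DESeq2 were not run on spread. All 4 named spread calls were lost in each of these settings with a count of 0, with adjusted p up to 0.412. The direction of each was kept, which is no separate support because they were chosen for the largest differences.

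**Figure D5:**
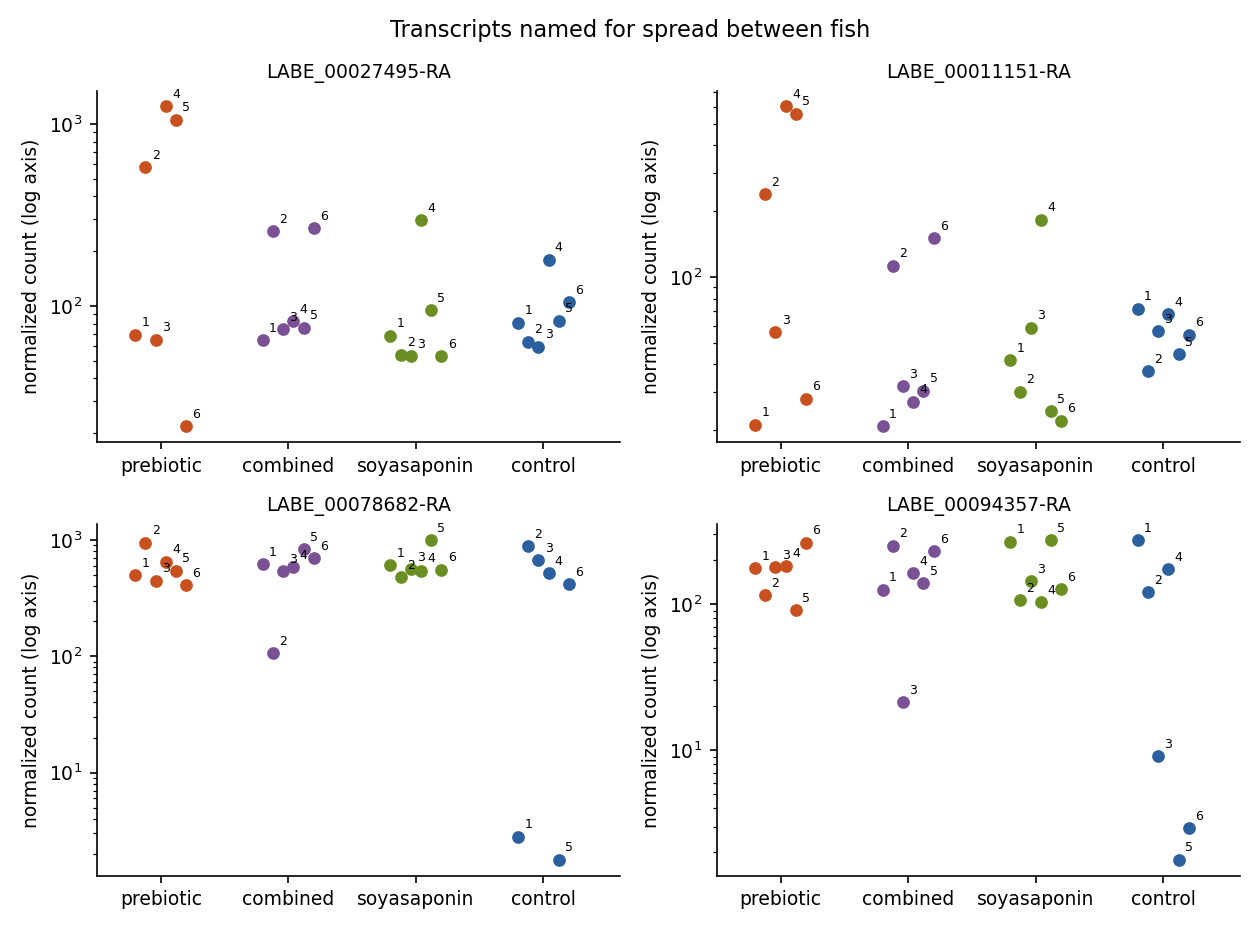
Normalized counts (vertical log axis) of the 4 transcripts named for spread, 1 point per fish numbered by replicate, for the 4 diets. In the upper panels prebiotic replicates 2, 4 and 5 lie above the control fish, and in the lower panels single control fish fall to 1.78 to 9.10 normalized counts while all prebiotic fish stay above 90.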

How the data were processed

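Per the labels' protocols, total RNA of the distal intestine (90 ng per library, mean RNA integrity number 7.8 ± 0.5) was made into stranded mRNA libraries and sequenced as paired ends. The deposited table holds a signal, transcript reads divided by 1 size factor per library by the authors. The submitters' processing notes name cutadapt, TopHat2, featureCounts, Subread and DESeq2 without role or version, and the sources used here give no build or annotation. Scaled by the worth of 1 read in its library, 100% of 498024 values came out whole (within 1e-06), and the size factors equalled recomputed median-of-ratios factors. The 30 same-diet pairs of libraries differed by 19.8 to 93.2 chi-square per degree of freedom, so each counted as a separate fish. Nothing in the labels ties fish to tanks, so p-values measure the spread between these fish.

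Level was tested with limma 3.58.1 (R 4.3.3, trended moderation, two-sided) on log2(normalized count + 1), which understates the fold change of low transcripts, for 17056 transcripts with a mean of at least 10 over 24 libraries. Spread was tested with limma on absolute deviations from the diet mean (times the square root of n over n - 1) in 12 libraries. Library measures used exact permutation tests, adjusted over 11. Adjusted p-values are Benjamini-Hochberg, over the 11 measures for library measures and over all transcripts tested elsewhere. Named for level are the 2 highest and 2 lowest log2 fold changes among called transcripts with a mean of at least 100 and no overlap, and for spread the 2 largest and 2 smallest differences among those called with that mean. Alternatives were 2 pseudocounts (0.5 and 5), 2 filters, quantile normalization, edgeR 4.0.16 and DESeq2 1.42.0 on recovered reads, weights, robust moderation, and leaving out fish. DESeq2 gave no adjusted p for 674 transcripts. Equal reads per library, the axis of the other diets and 2 library measures were added after seeing the data. The comparison, rules and tests were chosen with earlier results of these data known. The level and spread tests were checked on simulated data with each transcript drawn independently. The simulations held no axis shared between transcripts and, for level, no wider spread of prebiotic fish, so they do not cover these features. Figures used matplotlib 3.10.9.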

Additional observations from a re-analysis of the deposited data

Results flagged for a closer look

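In 4 cases a value stood apart from the other 5 fish of their diet by Dixon's criterion, out of 38 groups of 6 examined, where chance flags about 1 in 20. Control replicate 5 was lowest for LABE_00040876-RA with 135 normalized counts, where the other controls held 331 to 391. Prebiotic replicate 5 was highest for LABE_00049047-RA with 243, where the other prebiotic fish held 122 to 161. Control replicate 3 was highest for LABE_00018937-RA with 1202, where the other controls held 748 to 899. Prebiotic replicate 2 had the most transcripts with any read of its diet, 20386, and was the deepest library of that diet. Without the fish concerned, LABE_00040876-RA had an adjusted p of 0.0549 and LABE_00049047-RA of 0.0593 in limma, both above 0.05, while LABE_00018937-RA kept its call with an adjusted p of 0.0493 and a log2 fold change of -1.32.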

How the results depend on the processing

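Against 310 transcripts called for level, limma called 4 with 2 diets alone, 0 with a variance weight per diet (3226 before adjustment), 170 with a weight per library, 1149 at an adjusted p under 0.1, 2611 with equal reads per library and 11 without prebiotic replicates 4 and 5, and DESeq2 called 1626. Leaving out 1 fish at a time gave 0 to 1006. Other pseudocounts, filters, quantile normalization, robust moderation and edgeR stayed within 1.5 times in the total count. The balance still moved: quantile normalization gave 65 higher and 205 lower, against 157 and 153, and edgeR also called more lower than higher. Against 182 called for spread, the count was 0 with a pseudocount of 0.5, quantile normalization, deviation from the median, removal of the axis of the other diets, or no prebiotic replicates 4 and 5 (2830, 2713, 1724, 2291 and 1797 before adjustment). It was 461 with a pseudocount of 5, 1 with no filter, 360 with a mean of at least 50, 1038 with 4 diets in the fit and 661 at an adjusted p under 0.1, and 0 to 729 without 1 fish. The same-direction share with soyasaponin, 49.4%, was 55.5% with equal reads per library and 56.4% with DESeq2, and 37.6 to 68.2% without 1 fish. It was not computed where fewer than 20 transcripts were called. These shares cover the transcripts called in each setting, and the share over all transcripts was computed for the main fit only. The difference in distance to the diet centre, 23.5, was 15.4 without prebiotic replicates 4 and 5 (exact p = 0.214) and 19.1 to 31.7 without 1 fish. The causes were not tested. No paired analysis was possible because fish were numbered by accession order, and a shared number links none of them. Depth was similar between the groups, and transcripts under a mean of 10 normalized counts were not tested.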
